A study of Homo sapiens with 6 samples.

Results

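A set of 10 genes that restrain or read out signalling through the kinase ERK was followed in D283 Med cells, a human medulloblastoma line described as Group 3 and MYC-amplified. They were taken by symbol, 10 of the 60664 genes in the count files. They are the PEA3 transcription factors ETV1, ETV4 and ETV5, the Sprouty genes SPRY1, SPRY2 and SPRY4, the Sprouty-related genes SPRED1 and SPRED2, and the phosphatase genes DUSP5 and DUSP6. The cells had been transfected with LNA GapmeRs, short antisense strands that make RNase H cut the RNA they pair with. In 3 control libraries (SCR) the GapmeR carried a scrambled sequence, and in 3 knockdown libraries (KD) it was aimed at the long non-coding RNA lncMB3. All 6 libraries therefore come from transfected cells of 1 line. Whether the 3 libraries of each group are separate cultures is not stated, so every p-value reflects the spread among these libraries alone, and that spread may be technical. The lncMB3 transcript itself was not analysed here, because no source names its gene ID, and directions rest on the group labels.

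ERK is the last kinase of the cascade that runs from receptor tyrosine kinases through RAS, RAF and MEK. Active ERK switches on genes whose products hold the pathway back: Sprouty and SPRED proteins act upstream, on the receptor-to-RAF steps, and dual-specificity phosphatases remove phosphate from ERK itself. The PEA3 factors are ETS-family proteins that are induced by FGF and ERK signalling, held down by the repressor CIC, and serve as common markers of pathway output. The set was selected on pathway membership with the knockdown-over-control log2 changes of these same libraries already in view, so the values below describe its genes and are not independent evidence that the pathway differs.

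Total counts ran from 7765826 to 20035834 per library, lowest in KD 1. Group 3 markers were present, among them the transcription factor gene OTX2 at 885 ± 51.5 CPM (counts scaled to library size, with TMM factors) in controls and 729 ± 11.2 in the knockdown (SD, n = 3 each). Of 7 such markers 5 were called, with OTX2, CRX, NRL and IMPG2 lower in the knockdown and GABRA5 higher. This is 71.4% called against 31.7% of all genes tested, of which 15.9% were called in each direction, and the difference was not tested. Of 13 markers of immune, endothelial, mesenchymal, epithelial and glial cells, 4 passed the low-count filter, and their sum over the list was 22.1 to 24.8 CPM in controls and 16.8 to 19.4 in the knockdown, most of it COL1A1 (19.99 ± 1.85 and 15.8 ± 1.86 CPM, SD, n = 3). COL1A1, a mesenchymal marker, was called lower, at a log2 change of -0.36 (adjusted p = 0.0315 by edgeR). DCN, another, was also called lower, but it passed the low-count filter through the control libraries. It had 21, 26 and 13 counts in controls and 3, 12 and 7 in the knockdown, too few for a useful fold. AIF1, MBP and MOG were at 0 in every library. The part of these markers in the results below was not tested. On the first principal component, which held 53.3% of the variance, SCR 1 lay at -14.5 against -30.7 and -35.4 for the other controls and 20.9 to 31.7 for the knockdown libraries.

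Of the 10 genes, 9 passed the low-count filter. Called here means an adjusted p under 0.05 in edgeR's quasi-likelihood test over all 14673 genes tested, and rose or fell is written only of called genes. ETV4, SPRY4, SPRY2 and DUSP5 rose, and 0 fell. No lower gene had an unadjusted p under 0.05, and DESeq2 and limma-voom called 0 lower as well. Of all genes tested, 31.7% were called, 15.9% in each direction. In the same 4 genes the knockdown libraries all lay above the controls, which held for 22.9% of all genes. The gene choice fixes part of these counts, and nothing is read from them. The median log2 change of the 9 genes was 0.89, between 1.60 for ETV4 and -0.05 for ETV5, and that of all genes tested was 0.00.

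**Figure D1:**
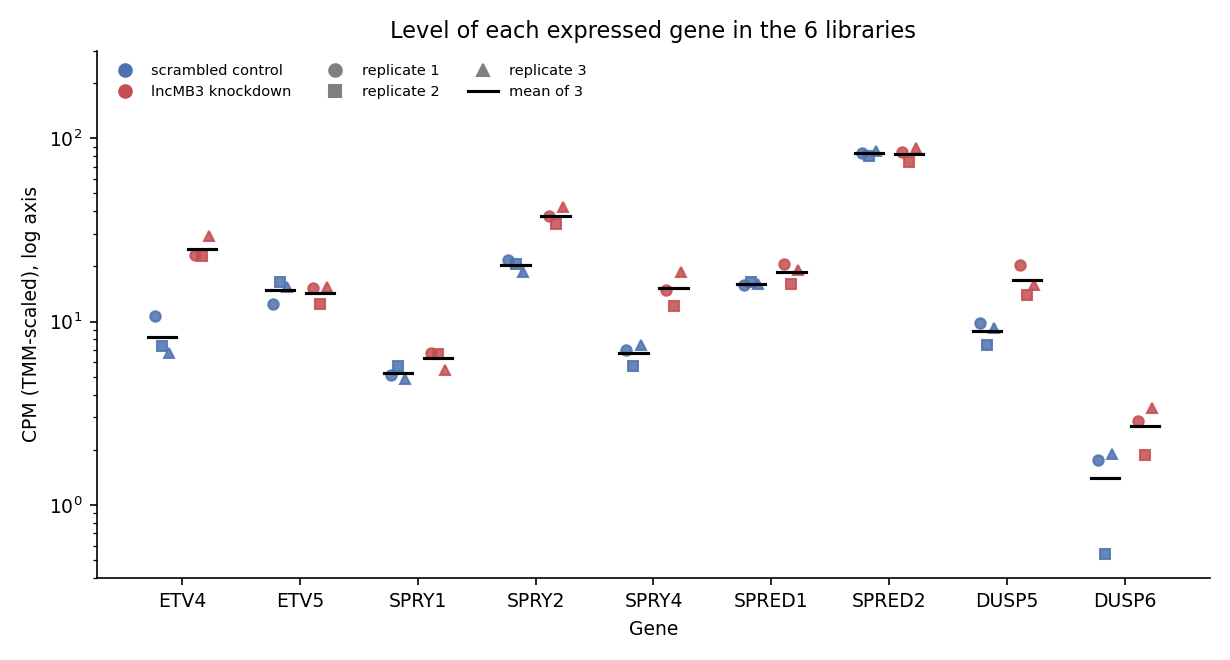
Level of the 9 expressed genes in TMM-scaled CPM on a log axis, with a symbol per library (shape for the replicate, blue for scrambled control, red for knockdown) and bars at the mean of 3. The red symbols lie clear of the blue ones for ETV4, SPRY2, SPRY4 and DUSP5, and overlap them for the other 5 genes.

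The start sites of genes that moved together are shown first, because they are the regulatory sequence on hand for these genes. RefSeq windows (GRCh38.p14) were matched for 7 of the 10 genes. The 250 bases before a RefSeq start are printed 5′ to 3′ on the gene's strand for SPRY2 and SPRY4, which rose, and SPRED1, a relative that was not called. The windows of SPRY4 and SPRED1 lie inside the GENCODE spans of these genes given below, and not before their outermost annotated start. The SPRY2 window is chr13:80341127-80341376 (minus strand, the most upstream of 3 windows), that of SPRY4 is chr5:142324248-142324497 (minus strand) and that of SPRED1 is chr15:38252586-38252835 (plus strand). Capitals mark matches, on either strand, to the ETS core CCGGAA and to TGACG, the core of the cyclic AMP response element, which is searched here apart from the full element TGACGTCA that contains it.
SPRY2: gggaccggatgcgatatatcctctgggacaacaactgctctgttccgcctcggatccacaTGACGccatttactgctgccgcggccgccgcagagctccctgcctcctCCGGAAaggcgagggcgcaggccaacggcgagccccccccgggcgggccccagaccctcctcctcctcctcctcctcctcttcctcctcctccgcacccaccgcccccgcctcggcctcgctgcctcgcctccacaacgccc
SPRY4: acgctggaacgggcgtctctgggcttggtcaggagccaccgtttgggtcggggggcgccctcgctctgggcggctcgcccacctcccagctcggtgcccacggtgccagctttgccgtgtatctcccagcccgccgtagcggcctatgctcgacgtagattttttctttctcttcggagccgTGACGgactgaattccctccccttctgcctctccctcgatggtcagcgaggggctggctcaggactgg
SPRED1: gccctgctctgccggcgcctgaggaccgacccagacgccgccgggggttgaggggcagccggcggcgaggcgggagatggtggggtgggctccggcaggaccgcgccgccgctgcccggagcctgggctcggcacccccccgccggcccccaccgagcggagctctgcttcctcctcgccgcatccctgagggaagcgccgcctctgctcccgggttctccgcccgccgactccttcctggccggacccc

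SPRY2 held 1 ETS core, 142 bases before the start, and 1 TGACG, 190 bases before it. SPRY4 held 1 TGACG, 68 bases before the start, and no ETS core, and SPRED1 held neither. The ETS core is found in 14.5% and TGACG in 21.2% of the 35116 windows of this length, so such matches are common. The other 2 windows of SPRY2 held no match to any motif searched. One window of SPRY1, which was not called, held the ETS core, and of the 6 windows of ETV1, which had 0 counts, 3 held the ETS core and 3 held TGACG. Of these ETV1 windows 2 overlap almost fully and share the same matches. SPRED2 and DUSP6, both not called, had no match to any motif searched in their windows. Among tested genes with a window, TGACG was thus found only in SPRY2 and SPRY4, and the ETS core only in SPRY2 and SPRY1. With so few genes and such common matches, nothing is read from this. ETV4, ETV5 and DUSP5 had no window matched. TGACGTCA, the AP-1 motif TGANTCA and the CIC octamer TGAATGAA (both strands each) had no match in the 3 printed windows, and are found in 1.65%, 6.57% and 1.40% of all windows. The CIC octamer variant TGAATGGA, also searched, had none in them either. It matched 1 window of ETV1 and is found in 0.83% of all windows. A match is a description of letters and not a site, and no match says only that the letters are not in that window.

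Among the PEA3 factors, only ETV4 was called. ETV4 (ENSG00000175832, chromosome 17, 43527844 to 43579620, minus strand) was at 10.8, 7.38 and 6.71 CPM in controls 1 to 3 and at 23.0, 22.6 and 29.1 CPM in knockdown libraries 1 to 3. Every knockdown library was well above every control, and SCR 1 was the control nearest to them. Its fitted change was 3.04-fold (log2 1.60 ± 0.16, SE), which lies at percentile 99.7 of all genes tested. An exon of ETV4 overlaps DHX8, a helicase gene on the opposite strand, and whether reads were counted by strand is not known. DHX8 was at 119 ± 4.06 CPM in controls and 133 ± 5.70 in the knockdown (log2 change 0.16 ± 0.08, adjusted p = 0.135 by edgeR).

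ETV5 (ENSG00000244405, chromosome 3, 186046308 to 186110318, minus strand), its closest expressed relative, was at 12.5, 16.5 and 15.4 CPM in control libraries, against 15.2, 12.5 and 15.5 CPM under knockdown. The groups overlapped throughout, with a log2 change of -0.05 and a 95% interval from -0.34 to 0.23, so a rise of more than 1.17-fold lay outside the interval. ETV1 (ENSG00000006468, chromosome 7, 13891228 to 13991425, minus strand) was listed at 0 in all 6 libraries. A total of 0 allows up to 0.0541 CPM for the control group and 0.0652 CPM for the knockdown group (3 counts over the 3 libraries of a group, counting error only). Within libraries, the log2 ratio of ETV4 to ETV5 was -0.22, -1.15 and -1.18 in controls and 0.59, 0.86 and 0.91 in the knockdown. ETV4 was thus the lower of the pair in every control library and the higher in every knockdown library, on the CPM scale. Scaled for exon length as well (TPM, explained below), ETV4 was already the higher in SCR 1, at 10.3 against 7.43. It was the lower in SCR 2 and SCR 3.

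The Sprouty genes divided. SPRY2 (ENSG00000136158, chromosome 13, 80335976 to 80340951, minus strand) was at 21.7, 20.5 and 18.6 CPM in control libraries, against 37.5, 34.1 and 42.1 CPM under knockdown. The groups were well apart and each was tight. The change was 1.87-fold (log2 0.90 ± 0.11, SE), the smallest error among the called genes of the set. SPRY4 (ENSG00000187678, chromosome 5, 142310427 to 142326455, minus strand) was at 7.02, 5.72 and 7.49 CPM in control libraries, against 14.8, 12.2 and 18.6 CPM under knockdown. All knockdown libraries were above all controls, KD 2 least so, and the change was 2.26-fold (log2 1.18 ± 0.16, SE).

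SPRY1 (ENSG00000164056, chromosome 4, 123396795 to 123403760, plus strand) was at 5.09, 5.72 and 4.86 CPM in control libraries, against 6.76, 6.62 and 5.47 CPM under knockdown. KD 3 fell within the range of the controls, and the log2 change was 0.25 with a 95% interval from -0.09 to 0.59. That interval ends at 1.502-fold, below the lower ends of 1.60-fold for SPRY2 and 1.77-fold for SPRY4, though the difference between the genes was not tested. In log2 CPM, SPRY2 exceeded SPRY1 by 1.82 to 2.07 in controls and by 2.34 to 2.92 in the knockdown. The ratio of SPRY2 to SPRY4 overlapped between groups, at 1.30 to 1.82 in controls and 1.18 to 1.48 in the knockdown.

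The SPRED genes, whose proteins bring the RAS inhibitor neurofibromin to the membrane, were not called. SPRED1 (ENSG00000166068, chromosome 15, 38252326 to 38357249, plus strand) was at 15.9, 16.4 and 16.0 CPM in control libraries, against 20.7, 16.0 and 19.1 CPM under knockdown. KD 2 sat among the controls while the other 2 knockdown libraries were above them, with a log2 change of 0.19 and a 95% interval from -0.05 to 0.43. SPRED2 (ENSG00000198369, chromosome 2, 65310851 to 65432637, minus strand) was at 82.7, 80.1 and 85.2 CPM in control libraries, against 84.5, 74.3 and 88.4 CPM under knockdown. It is the most precisely measured gene of the set, and its log2 change of -0.01 had a 95% interval from -0.19 to 0.18, or 0.875-fold to 1.13-fold. NF1, which encodes neurofibromin, was at 0.03 ± 0.11 in log2 change (SE, adjusted p = 0.883 by edgeR) and is named here for its link to SPRED.

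**Figure D2:**
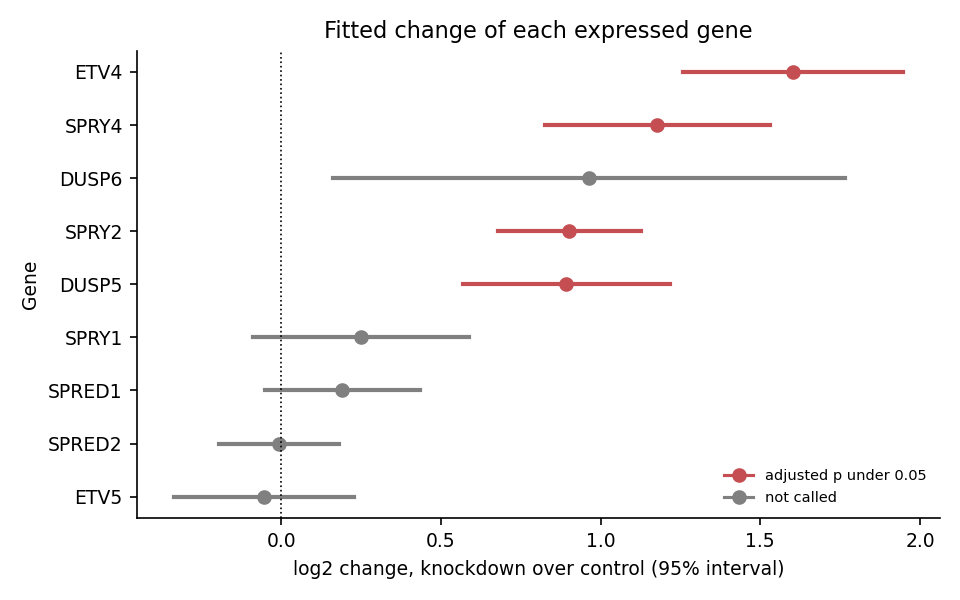
Fitted log2 change, knockdown over control, of the 9 expressed genes with its 95% interval (edgeR), in red where the adjusted p was under 0.05. ETV4 is at 1.60 and SPRY4 at 1.18, while the intervals of SPRY1, SPRED1, SPRED2 and ETV5 include 0 and that of DUSP6 is the widest.

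The phosphatase genes had similar fitted changes at unequal precision. DUSP5 (ENSG00000138166, chromosome 10, 110497838 to 110511544, plus strand), which encodes a nuclear ERK phosphatase, was at 9.83, 7.48 and 9.22 CPM in control libraries, against 20.4, 13.9 and 15.9 CPM under knockdown. The groups did not overlap, and the change was 1.86-fold (log2 0.89 ± 0.15, SE). DUSP6 (ENSG00000139318, chromosome 12, 89347232 to 89353271, minus strand), which encodes the cytoplasmic ERK phosphatase and is often used as a gauge of ERK activity, was at 1.76, 0.538 and 1.90 CPM in control libraries, against 2.86, 1.88 and 3.39 CPM under knockdown.

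Those DUSP6 values rest on 30, 11 and 34 counts in controls and 22, 36 and 65 in the knockdown, so it sits at percentile 15.8 of the tested genes by level. SCR 2 was low and KD 2 lay just under SCR 3. The fitted change of 1.95-fold (log2 0.96 ± 0.38, SE) was as large as those of SPRY2 and DUSP5, but missed the threshold (adjusted p = 0.0628 by edgeR). Without SCR 2 its log2 change was 0.55 (adjusted p = 0.235), and without SCR 3 it was 1.26 (adjusted p = 0.0479). A miss at this depth does not show that DUSP6 was level between the groups.

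**Figure D3:**
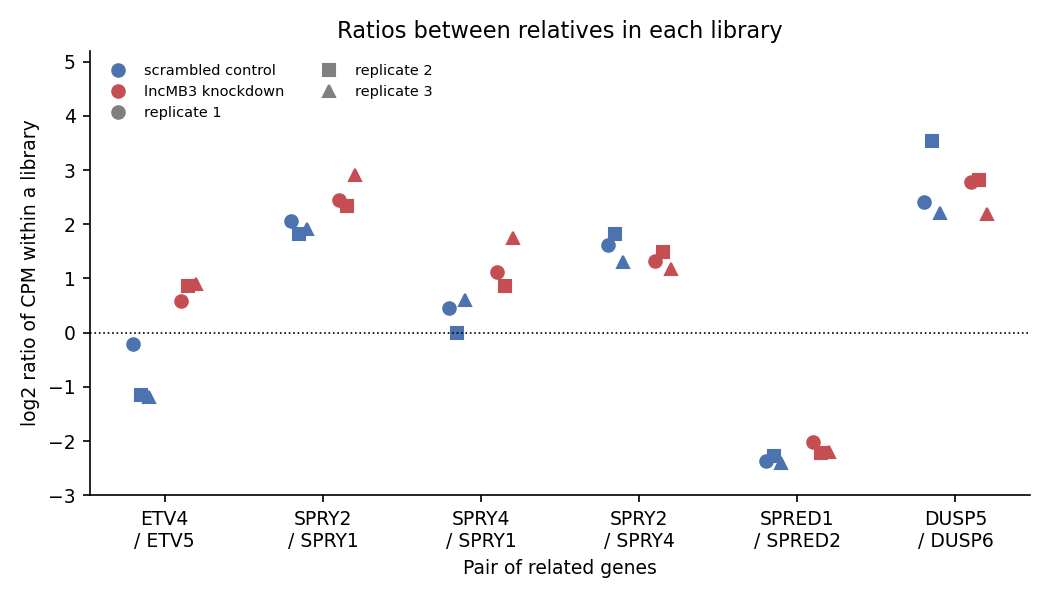
Within-library log2 ratio of CPM for 6 pairs of related genes (y axis), with a symbol per library (shape for the replicate, blue for control, red for knockdown). ETV4 to ETV5 crosses 0 between the groups on this scale, which takes no account of gene length. The ratios of SPRY2 and SPRY4 to SPRY1 are higher in every knockdown library, and those of SPRY2 to SPRY4 and DUSP5 to DUSP6 overlap.

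Levels of different genes were set side by side per length of annotated exon, as TPM (length-scaled transcript abundance, from the counts and the GENCODE release 29 exon length). In controls the order was SPRED2 at 56.95 ± 3.10 TPM, SPRY2 at 23.7 ± 1.13, DUSP5 at 11.999 ± 1.61, ETV5 at 9.08 ± 1.44, ETV4 at 8.11 ± 1.89, SPRED1 at 6.91 ± 0.258, SPRY1 at 4.68 ± 0.383, SPRY4 at 3.65 ± 0.544 and DUSP6 at 1.07 ± 0.581 (SD, n = 3). Libraries of ETV5 and ETV4 overlapped, as did those of ETV4 and SPRED1, and the other neighbours in that order did not. In the knockdown SPRED2 still came first at 54.2 ± 6.56 TPM, with libraries overlapping those of SPRY2 at 42.3 ± 5.78. ETV4 moved to the third place at 23.5 ± 4.05 TPM, overlapping DUSP5 at 21.7 ± 4.76. ETV5, SPRY4 and SPRED1 followed at 8.42 ± 1.24, 7.86 ± 1.90 and 7.63 ± 1.198 TPM. Their libraries overlapped among themselves, but not those of DUSP5 above them or SPRY1 below. The called genes were therefore neither the highest nor the lowest of the set in controls.

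Gene features that the choice did not use overlapped between the called genes and the others. Gene spans were 51.8, 4.98, 16.0 and 13.7 kb for ETV4, SPRY2, SPRY4 and DUSP5, while uncalled genes ran from 6.04 kb for DUSP6 and 6.97 kb for SPRY1 to 121.8 kb for SPRED2. The pentamer ATTTA, found in many unstable transcripts, occurred 0 times in the 3′ UTR of ETV4 and of DUSP5, 2 times in that of SPRY2 and 8 times in that of SPRY4. Per kilobase of 3′ UTR this was 0, 0, 2.56 and 2.12, against 0.495 for DUSP6, 1.72 for ETV5, 1.89 for SPRED2, 3.31 for SPRY1 and 4.30 for SPRED1, and a median of 1.69 over 11725 tested genes. These are sequence descriptions with no test.

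Across the 6 libraries, the genes closest to ETV4 in centred log2 CPM were UBASH3B, HSPH1 and KIF5C, of 10844 genes with at least 5 CPM. Their root mean square differences from ETV4 were 0.12, 0.16 and 0.20. LRRC4, SLC4A8 and ADAMTS15 were closest to SPRY4, at 0.14, 0.15 and 0.15. The nearest to DUSP6 were farther off, RSC1A1 at 0.40, SPRY4 at 0.42 and ADAMTS15 at 0.43. All 6 libraries fall into 2 groups, so likeness over them largely reflects the group difference.

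The other genes of the pathway were taken from lists written by function, 151 genes of which 118 were tested. Of these 20 were higher and 19 lower, 33.1% called against 31.7% of all genes, and their median log2 change was 0.03. With upper-quartile scaling, 15 were higher and 22 lower, and of all genes 1773 were higher and 2803 lower. The call rate of the wider pathway was thus near that of all genes.

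Other ERK-responsive genes gave rises and no falls. Of 25, 21 were tested, 7 rose and 0 fell, against 15.9% of all genes higher, with a median log2 change of 0.26. In all 33.3% were called, near the 31.7% of all genes. The 7 include ARC, which passed the low-count filter through the knockdown libraries alone, and with a filter of 1 CPM in 3 libraries, which leaves ARC out, 6 of 18 rose. No lower one had an unadjusted p under 0.05, and DESeq2 and limma-voom called 0 lower as well. Some of these genes had been seen to rise in an earlier analysis of the same libraries, so the count is not independent evidence. IER3, an immediate early survival gene, was at 178, 158 and 154 CPM in control libraries, against 286, 297 and 292 CPM under knockdown, a rise of 1.79-fold (adjusted p = 3.27e-05 by edgeR). JUNB, an AP-1 subunit, rose 1.44-fold from 38.3 ± 2.35 to 55.4 ± 5.10 CPM, and FOSL2, another, rose 1.74-fold from 4.82 ± 0.977 to 8.42 ± 0.667 CPM (SD, n = 3; adjusted p = 0.00109 and 0.00283 by edgeR). ARC, a neuronal immediate early gene, had 2, 1 and 1 counts in controls and 5, 15 and 15 in the knockdown, too few for a useful fold.

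HBEGF, FOSL1 and IER2 completed the 7, and were named after their values were seen, as were EGR1, PHLDA1 and CCND1. EGR1, a direct ERK target, was at 41.6, 33.5 and 35.4 CPM in control libraries, against 49.6, 37.0 and 48.9 CPM under knockdown, with overlapping groups and a log2 change of 0.29 ± 0.12 (SE, adjusted p = 0.0803 by edgeR). PHLDA1, like SPRY2 and SPRY4 a common readout of ERK output, was at 85.8 ± 3.67 CPM in controls and 97.3 ± 4.94 in the knockdown (SD, n = 3), a log2 change of 0.18 ± 0.08 (SE, adjusted p = 0.105 by edgeR). CCND1, cyclin D1, did not pass the low-count filter. The 14 tested genes of this list that were not called also include EPHA2, FOS, MYC, KLF10 and IER5. Their log2 changes were 0.03, 0.17, 0.03, 0.03 and -0.13. Larger uncalled changes, on few counts, were those of UPP1 and EMP1, at 0.99 and 0.59. These genes too were named after their values were seen. The count of 7 was 4 without SCR 2, and 5 without KD 1 or without KD 3. Fewer of all genes were called without SCR 2 as well, as given in the closing section.

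Other brakes on the pathway were counted beside the 15.9% of all genes called in each direction, with no test of the difference. Of 7 further MAP kinase phosphatase genes tested 0 rose and 1 fell by edgeR, 14.3% called in all, with 1 higher at an unadjusted p under 0.05 and 0 higher by DESeq2 or limma-voom. DUSP16, which acts mainly on JNK and p38, fell 1.34-fold from 40.2 ± 1.10 to 29.9 ± 1.88 CPM (SD, n = 3, adjusted p = 0.00282 by edgeR). DUSP4, an inducible nuclear ERK phosphatase, was at 12.9, 14.9 and 15.5 CPM in control libraries, against 13.8, 15.2 and 17.6 CPM under knockdown, with a log2 change of 0.12 and a 95% interval from -0.14 to 0.38. DUSP1 was at a log2 change of 0.30 ± 0.14 (SE, adjusted p = 0.106 by edgeR).

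Of 17 tested further negative regulators of RAS and ERK, 1 rose and 2 fell, 17.6% called against 31.7% of all genes. TOB1, an antiproliferative factor, rose 1.36-fold, while CBLB, a ubiquitin ligase for receptors, fell 1.44-fold and RASA1, a RAS GTPase activator, fell 1.23-fold (adjusted p = 0.00268, 0.00122 and 0.0346 by edgeR). The call of RASA1 was lost with DESeq2 (adjusted p = 0.0516) and without SCR 2, SCR 3, KD 1 or KD 2 (adjusted p from 0.0699 to 0.126 by edgeR). SPRY3, the remaining Sprouty gene, was at 2.25 ± 0.645 CPM in controls and 1.43 ± 0.250 in the knockdown (SD, n = 3), with a log2 change of -0.61 ± 0.28 (SE, adjusted p = 0.114 by edgeR). SPRED3, the remaining SPRED gene, had one of -0.12 ± 0.27 (SE, adjusted p = 0.76 by edgeR).

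**Figure D4:**
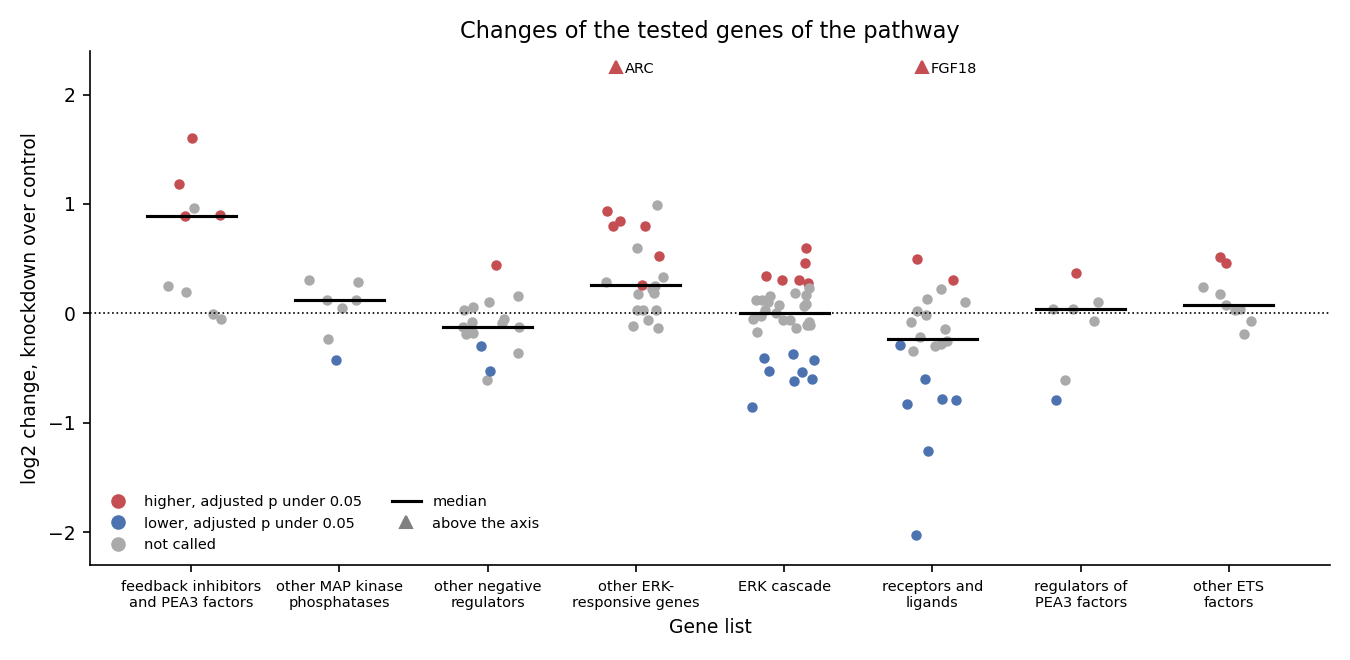
Log2 change, knockdown over control, of every tested gene of 8 lists (x axis), with red for called higher, blue for called lower, grey for not called, and a black bar at the median. ARC and FGF18 lie above the axis. The ERK-responsive genes have 7 red points and 0 blue, and the cascade has 6 and 8. In all 33.3% and 40% of the tested genes of these lists were called, against 31.7% of all genes, with no test of the difference.

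Of 35 tested genes of the cascade itself, 6 rose and 8 fell, with a median log2 change of 0.00. This is 40% called against 31.7% of all genes, a difference that was not tested. The adaptor and scaffold genes GAB1, GAB2 and KSR1 fell 1.81-fold, 1.53-fold and 1.51-fold, and HRAS rose 1.51-fold (adjusted p = 0.000474, 0.00107, 0.00121 and 0.00097 by edgeR). The kinase genes MAP2K1, MAP2K2 and MAPK3 were not called, with log2 changes of 0.07, -0.06 and -0.13 and 95% intervals between -0.32 and 0.26. The number of cascade genes that rose was 1 without SCR 2, 2 without SCR 3, 3 without KD 1 and 2 without KD 3, and it was 3 with upper-quartile scaling. Of all genes, too, fewer were called higher without SCR 2, without SCR 3 and with upper-quartile scaling (1773 against 2328 for the last). The number that fell was 5 without KD 3.

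Upstream, 22 of 40 receptor and ligand genes were tested, of which 3 rose and 7 fell, with a median log2 change of -0.23. This is 45.5% called against 31.7% of all genes, likewise not tested. The share counts FGF18 and BDNF, which each passed the low-count filter through 1 group alone. With a filter of 1 CPM in 3 libraries, which leaves FGF18 out and keeps BDNF, 2 of 20 rose and 8 fell. INSR and IGF1R, the insulin and IGF receptors, fell 2.39-fold and 1.72-fold (adjusted p = 9.01e-05 and 0.000312 by edgeR). BDNF, a neurotrophin counted among the 7 that fell, passed the low-count filter through the control libraries alone. It had 21, 30 and 29 counts in controls and 3, 9 and 4 in the knockdown, too few for a useful fold. The 3 that rose were ligand FGF18, ligand FGF2 and receptor FGFR3, and other FGF receptors did otherwise. FGFR2 fell 1.22-fold from 134.6 ± 10.5 to 110.3 ± 7.89 CPM (SD, n = 3, adjusted p = 0.0230 by edgeR), while FGFR1 and FGFR4 were not called, at log2 changes of -0.01 and 0.13. All of these but FGF18 were named after their values were seen. FGF18 passed the low-count filter through the knockdown libraries alone. It had 0 counts in each control and 6, 16 and 25 in the knockdown, too few for a useful fold. FGF2 rose 1.23-fold and FGFR3 1.41-fold (adjusted p = 0.0382 and 0.0121 by edgeR). The number of receptor and ligand genes that fell was 4 without KD 2, and 2 rose without SCR 2, SCR 3, KD 1 or KD 3. Calls over all genes were also fewer without SCR 2 or SCR 3.

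Regulators of the PEA3 factors showed 1 rise and 1 fall of 7, 28.6% called against 31.7% of all genes. CIC, the repressor of the PEA3 genes, was at 84.0 ± 4.06 CPM in controls and 86.5 ± 4.002 in the knockdown, and COP1, the ubiquitin ligase that marks PEA3 proteins for degradation, was at 67.3 ± 2.58 and 63.9 ± 4.21 CPM (SD, n = 3). Their log2 changes were 0.04 and -0.07, with 95% intervals from -0.13 to 0.22 and from -0.25 to 0.11. DET1, a partner of COP1, fell 1.73-fold from 6.53 ± 1.37 to 3.73 ± 0.200 CPM, and CUL4A, the cullin of that ligase, rose 1.29-fold (adjusted p = 0.00496 and 0.00597 by edgeR). Of 9 other ETS factors 2 rose and 0 fell, 22.2% called against 31.7% of all genes, of which 15.9% were higher. None was lower at an unadjusted p under 0.05 or by DESeq2 or limma-voom. Those that rose were ERF and ETV3, both ETS repressors, at 1.43-fold and 1.38-fold (adjusted p = 0.000474 and 0.00318 by edgeR).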

How the data were processed

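Polyadenylated RNA of 6 D283 Med libraries was sequenced after a miRNeasy Micro extraction and a TruSeq Stranded mRNA preparation, per the labels. Per the submitters' processing notes, the authors trimmed with Trim Galore 0.6.4, aligned with STAR 2.7.9a to GRCh38.p13 and used RSEM. Neither the annotation nor the strand setting is stated. The deposited values are whole numbers for 60708 genes per library, taken here to be RSEM's estimated counts (expected counts) after rounding by the authors. RSEM shares reads among similar genes, so counts of close paralogs are uncertain.

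The 44 pseudoautosomal Y copies were added to their X copies. Groups and replicate numbers came from the labels. No 2 libraries of a group agreed within sampling noise (chi-square over its degrees of freedom from 2.72 to 16.5), so each was treated as 1 replicate. This does not show that they are separate cultures. All genes were fitted with edgeR 4.0.16 in R 4.3.3 (filterByExpr, TMM, glmQLFit, glmQLFTest, 2-sided, no covariate), with Benjamini-Hochberg adjustment over 14673 genes and a threshold of 0.05. SE was approximated from the log2 change and its F statistic (change over root F), and 95% intervals use it with the fit's degrees of freedom. Log2 CPM used a prior count of 2. Positions, exon lengths and 3′ UTRs are from GENCODE release 29 (GRCh38, 1-based), with the coding transcript of longest coding sequence for 3′ UTRs of at least 100 bases. Promoter windows are from RefSeq on GRCh38.p14. Motifs were chosen for known links to ERK, cyclic AMP and CIC. The script was tested on simulated data.

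The genes, lists and tests were chosen with earlier results of these data known. Named genes were the 10, up to 4 of each pathway list with the smallest adjusted p, 9 chosen by role (1 of which is not reported here, and MAPK3, MAP2K1, MAP2K2, DUSP4, SPRY3, SPRED3, CIC and COP1), and the 3 nearest profiles to ETV4, SPRY4 and DUSP6. Exceptions are marked. Alternatives were RLE and upper-quartile scaling, other low-count filters, DESeq2 1.42.0, limma-voom (limma 3.58.1), a replicate block, a threshold of 0.01 and leaving out each library. Figures were drawn with matplotlib 3.10.9.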

Additional observations from a re-analysis of the deposited data

How the results depend on the processing

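ETV4, SPRY2, SPRY4 and DUSP5 were called higher under all 13 alternatives other than the stricter threshold, and also at an adjusted p under 0.01. Their log2 changes ran from 1.46 to 1.83, 0.80 to 0.98, 0.97 to 1.34 and 0.76 to 1.01. DUSP6 was called in 5 of the 13 (log2 change 0.55 to 1.26, adjusted p 0.00453 to 0.277), namely with no low-count filter, limma-voom, the replicate block, and without SCR 3 or KD 2. Some uncalled changes near 0 turned sign. Over fits without 1 library, ETV5 ran from -0.156 to 0.052 (0.034 without SCR 2, 0.052 without KD 2), SPRED2 from -0.071 to 0.068 (0.016 without SCR 3, 0.068 without KD 2), SPRED3 from -0.238 to 0.111 (without SCR 3) and ATXN1L from -0.068 (without KD 3) to 0.263, and CIC was at -0.018 with upper-quartile scaling. At an adjusted p under 0.01, 12 other pathway genes were higher and 12 lower, and of all genes 1190 were higher and 1269 lower, against 2328 and 2329 at 0.05. With upper-quartile scaling, which moved the median of all genes by -0.06, 1773 of all genes were higher and 2803 lower. Leaving out 1 library gave 11 to 23 other pathway genes higher (11 without SCR 2 and 13 without KD 3) and 14 to 19 lower, and of all genes 1264 to 2604 higher and 1440 to 2510 lower, lowest without SCR 2 (1264 and 1440) and next without SCR 3 (1420 and 1471). Fewer libraries enter those fits. Replicate numbers do not pair the libraries: same-numbered deviations from the group means correlated at 0.03, 0.10 and -0.03. With the replicate block 5 genes of the set were called higher, and 21 other pathway genes were higher and 18 lower. Depth limits genes that rest on few counts per library, among them DUSP6, ARC, FGF18, FOSL1 and BDNF.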
